A study of Mus musculus with 18 samples.

Results

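The mRNAs of lysosomal hydrolases, of lysosomal membrane proteins and of the proton pump that acidifies the lysosome were followed in bone marrow-derived macrophages (BMDMs). The 47 genes were taken by their symbols from a table of 25926 genes, and each was found there. They comprised 15 genes of the vacuolar H+-ATPase (V-ATPase), 5 other membrane proteins, 10 proteases, 8 glycosidases and 9 proteins of lipid turnover or their cofactors. The lysosome is the compartment in which a macrophage degrades engulfed and internalised material. The V-ATPase is built from a membrane part, V0, which carries protons across the membrane, and a soluble part, V1, which hydrolyses ATP to drive them. The resulting acid pH activates cathepsins and other hydrolases, which reach the lysosome mostly through the mannose 6-phosphate pathway. Many of these genes share a promoter element, the CLEAR element, which is bound by the MiT family of factors with TFEB as the best known member.

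RNA sequencing was done on the BMDMs of 18 cocultures, 6 in each of 3 groups. All BMDMs came from C57BL/6J mice, had been differentiated for 7 days with 50 ng/mL M-CSF, and shared medium through the 0.4 μm pores of a Transwell insert with tubular epithelial cells of the kidney (TECs) in the chamber beneath. BMDMs of the NC group received PBS and their TECs no crystals. The COM group differed in that the TECs had been given calcium oxalate monohydrate (COM) crystals at 100 μg/mL for 24 h, with PBS for the BMDMs. In the COM+Met group the BMDMs were given 5 mM Met for 24 h above TECs treated with COM. The labels do not spell out Met, and give no batch, and do not say whether replicates were separate mice or cultures, so that p-values measure the spread between these samples. No sample analysed here combined Met with TECs free of crystals.

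Levels are FPKM, fragments scaled to transcript length and to the mapped total of the sample, as deposited, so that levels of different genes are compared per length. Read depth cannot be had from these values. Differences are on the log2(FPKM + 1) scale with the standard error (SE) of limma, and a gene rose or fell where limma gave an adjusted p below 0.05 over all genes tested. The macrophage markers were all measured, with 8 of 8 above a mean of 1 FPKM in each group and Lyz2 as the most abundant. The summed level of 15 tubular epithelial markers ranged from 10.9 to 18.4 FPKM for NC, from 0.558 to 1.5 for COM and from 0.0603 to 0.350 for COM+Met, with Cdh1 the highest. Of the 15, Cdh1 alone reached a mean of 1 FPKM, and only in NC. In NC, COM and COM+Met, 4, 6 and 8 of them were at 0 in every sample. The summed level of 12 neutrophil markers was 535 to 1018, 170.3 to 552 and 74.0 to 137 FPKM in the same order, with Mmp8 the highest. That of 7 fibroblast markers was 14.4 to 60.4, 4.61 to 36.7 and 2.33 to 7.33 FPKM. These sums were lower in COM+Met than in COM and their part in the results on lysosomal genes was not tested. In a bulk sample fewer cells of a type and less RNA per cell cannot be told apart.

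Some libraries stood apart. COM-6 correlated with the other COM samples at no more than Pearson's r = 0.935 over genes, against 0.993 to 0.995 for the best partner of each other COM sample. COM-4 and COM-5 resembled each other (r = 0.995) and reached at most 0.951 with COM-1 to COM-3, while NC-5 and NC-6 reached at most 0.962 with NC-1 to NC-4. Counts without these libraries, and the members whose calls were lost without them, are given with the comparisons.

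Against NC, the COM group showed no common direction of the 47 genes. Of the 47, all of which were tested, 9 rose (19.1%), 13 fell (27.7%) and 25 did not pass. Over all 10900 genes tested, 12.7% rose and 40.6% fell. The median log2 difference of the members was -0.10 and that of all genes -0.27. A change of at least 2-fold was reached upwards by Npc2 alone (all genes 5.99%) and downwards by Atp6v0a1 and Atp6v1b2 (all genes 11.7%). The balance depended on the scaling, since 16 rose and 6 fell (all genes 23.5% and 23.7%) after division by median-of-ratios size factors, which moved the median of all genes from -0.27 to 0.0048 and that of the members to 0.21. Without COM-6 the counts were 11 and 16, without COM-4, COM-5 and COM-6 they were 8 and 18, and without NC-5 and NC-6 they were 7 and 10. The medians of the members were then -0.080, -0.076 and -0.082, against -0.219, -0.138 and -0.256 for all genes. The shares of all genes above do not refer to the counts with samples left out. The call of Gm2a was lost without COM-6, those of Ctsc, Ctsh, Gla and Gm2a without COM-4, COM-5 and COM-6, and those of Atp6v0c, Atp6v1c1, Mcoln1, Ctsh and Ctss without NC-5 and NC-6.

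Against COM, the COM+Met group showed higher lysosomal mRNAs. Limma found 20 of 47 higher (42.6%) and 0 lower, whereas 5.77% of all 10364 genes tested rose and 7.58% fell. At an unadjusted p below 0.05 the counts were 24 and 0. The log2 difference was above 0 for 43 of 47 members, with a median of 0.38 against 0.0033 for all genes. Only Naglu reached 2-fold (all genes 0.608% upwards and 1.61% downwards). Size factors gave 21 and 0. Without COM-6 the counts were 24 and 0, and without COM-4, COM-5 and COM-6 they were 30 and 4, the 4 being Atp6v0a1, Atp6v1a, Man2b1 and Asah1. The medians of the members were then 0.31 and 0.27, against -0.041 and -0.126 for all genes. The shares of all genes above refer neither to the unadjusted p nor to size factors or samples left out. Leaving out 1 of COM+Met-2 to COM+Met-6 left 12 to 13 members higher, which is over 1.5 times fewer, and no other single sample left out had an effect of that size. Higher under every setting tried were 9 of the 20, namely Cd68, Ctsa, Ctsb, Tpp1, Hexa, Gla, Glb1, Gusb and Gaa.

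COM+Met against NC gave 26 members higher (55.3%), 8 lower (17.0%) and 13 that did not pass, with 19.3% and 55.9% of all 10786 genes. Here 5 members were at least 2-fold higher (all genes 5.66%) and Atp6v0a1 at least 2-fold lower (all genes 13.6%). The median of the members was 0.23 and that of all genes -0.26. The size factors gave 36 and 6, with medians of 0.54 for the members and 0.011 for all genes. Leaving out NC-5 and NC-6 gave 27 and 9, with medians of 0.24 and -0.24. The shares of all genes above do not refer to these settings. This comparison shares its samples with the others, and the COM samples enter both COM against NC and COM+Met against COM, so that the 3 comparisons are not independent.

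As a share of summed FPKM, the 47 genes took 4.29% at the lowest, 4.54% at the median and 4.73% at the highest in NC, 4.21%, 4.40% and 5.48% in COM, and 6.14%, 6.32% and 6.56% in COM+Met. The COM+Met samples lay above every sample of the other groups. NC and COM overlapped, and the highest COM values were 5.48% in COM-4 and 5.27% in COM-5. The share in COM was 4.67% ± 0.554 (SD, n = 6) against 4.53% ± 0.145 in NC and 6.34% ± 0.143 in COM+Met. The share is a sum in which the most abundant members weigh most. On average the 47 genes summed to 19144.5 FPKM in NC and 27661.5 FPKM in COM+Met. Psap, Ctsd, Ctss, Ctsz and Ctsb made 3921, 3320, 2335, 725 and 651 FPKM of this in NC. In COM+Met they made 5657, 5214, 3586, 1970 and 1756 FPKM.

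**Figure D1:**
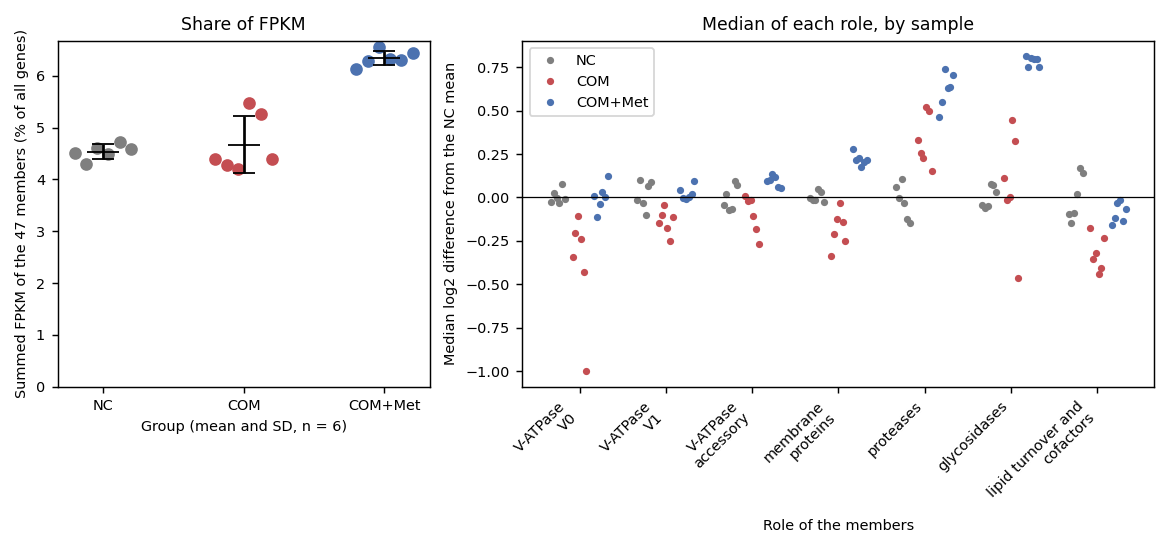
Left, summed FPKM of the 47 members as a percentage of the summed FPKM of all genes, 1 point per sample with mean and SD, the COM+Met samples lie at 6.14% to 6.56%, above the other groups. Right, for each role, the median over its members of the log2(FPKM + 1) difference from the NC mean, 1 point per sample, glycosidases in COM+Met lie highest, and the NC to COM order of several roles depends on the scaling.

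The roles differed in how many of their members moved. In COM+Met against COM, 6 of 8 glycosidases, 6 of 10 proteases, 3 of 5 membrane proteins, 2 of 9 proteins of lipid turnover and 3 of 15 V-ATPase genes rose, with medians of 0.65, 0.48, 0.42, 0.27 and 0.13 on the log2 scale. In COM against NC, 8 of the 27 enzymes and cofactors rose and 6 fell, while 1 of the 15 V-ATPase genes rose and 5 fell. With size factors these became 10 and 2 for the enzymes and 5 and 3 for the V-ATPase, so that the balance of the pump genes turned with the scaling. The difference between roles was not tested. The heatmap of all members by sample gives each value relative to NC.

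**Figure D2:**
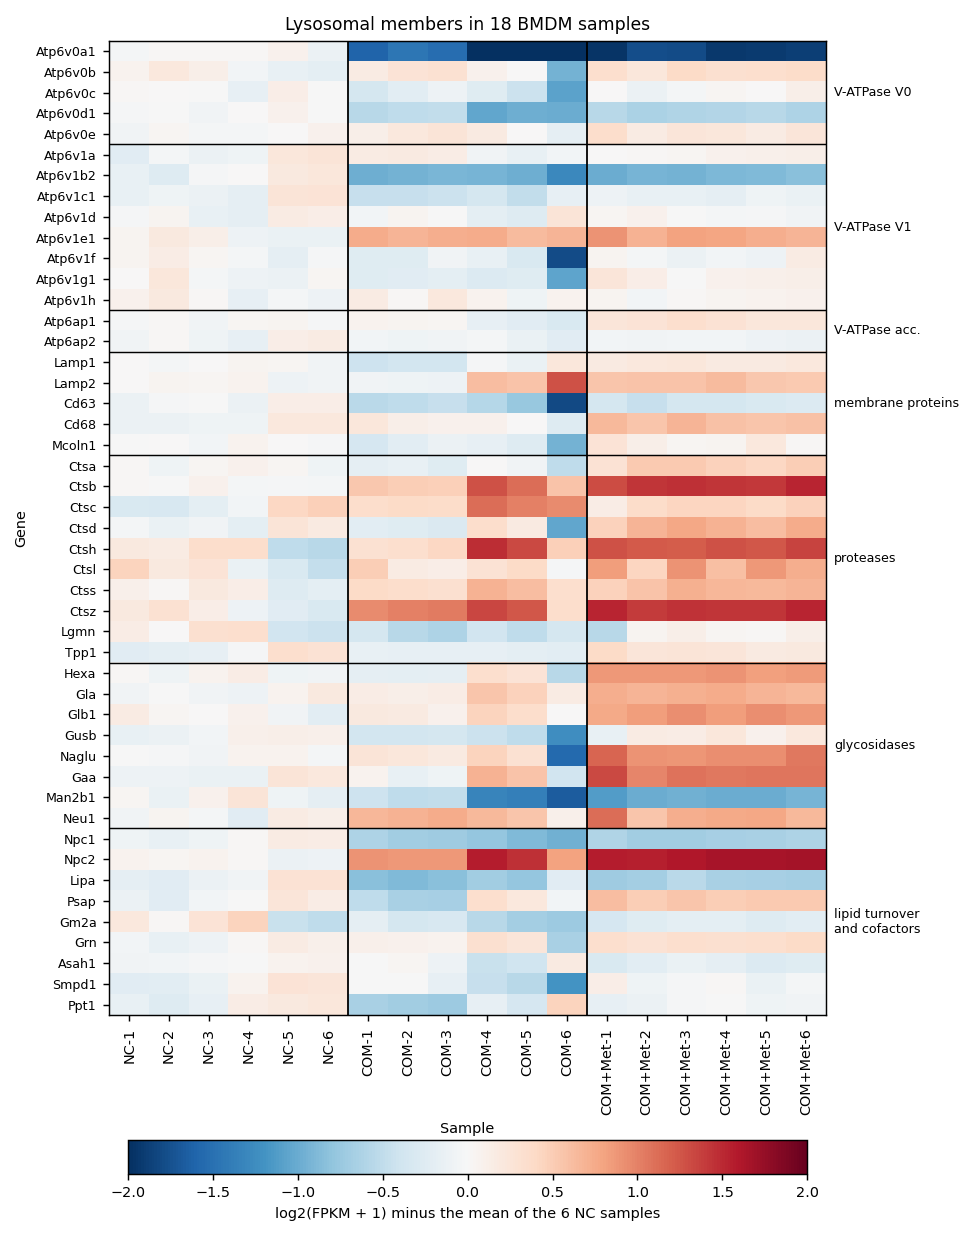
Each row is 1 of the 47 members, ordered by role, and each column 1 of the 18 samples. Colour gives log2(FPKM + 1) minus the mean of the 6 NC samples, capped at 2 in either direction. Ctsb, Ctsz, Npc2 and the glycosidases Gaa and Naglu are red throughout COM+Met, Atp6v0a1 is blue throughout COM and COM+Met, and COM-6 differs from the other COM samples in many rows.

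The promoters of the members are shown because 1 short motif was frequent among them. Lysosomal genes are known for the CLEAR element, so that this frequency is a trait of the gene list and not a result of COM or Met. The palindrome CACGTG, which reads the same on both strands and is the core of the CLEAR element, was searched from 250 bases before to 50 after the RefSeq transcription start (GRCm38.p6). Of the 47 members 39 had a promoter entry, and 14 of these held CACGTG (35.9%), against 8.09% of 27025 genes. GTCACGTG, searched on both strands, contains CACGTG, so its matches are among those of the first motif, and was found in 10 of 39 (25.6%) against 2.55%. Stretches that lie before the gene models of RefSeq and of GENCODE M21 are printed 5′ to 3′ on the strand of the gene, with CACGTG in capitals, for 5 members that hold it there, of which Lamp1, Glb1, Gaa and Gla rose with Met, and for Hexa, which also rose and has no match.
Lamp1, chr8:13159041-13159160 (+): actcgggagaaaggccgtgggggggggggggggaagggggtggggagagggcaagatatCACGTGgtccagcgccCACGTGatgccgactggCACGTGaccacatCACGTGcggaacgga
Glb1, chr9:114400956-114401075 (+): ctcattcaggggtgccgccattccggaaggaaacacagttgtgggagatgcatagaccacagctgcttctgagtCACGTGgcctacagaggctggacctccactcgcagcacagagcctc
Gaa, chr11:119267767-119267886 (+): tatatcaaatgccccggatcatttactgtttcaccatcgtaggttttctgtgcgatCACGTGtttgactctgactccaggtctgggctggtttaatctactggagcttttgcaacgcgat
Gla, chrX:134601126-134601245 (-): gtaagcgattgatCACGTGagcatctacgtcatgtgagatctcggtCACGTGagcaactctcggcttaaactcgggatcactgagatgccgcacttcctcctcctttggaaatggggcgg
Atp6v0b, chr4:117887334-117887453 (-): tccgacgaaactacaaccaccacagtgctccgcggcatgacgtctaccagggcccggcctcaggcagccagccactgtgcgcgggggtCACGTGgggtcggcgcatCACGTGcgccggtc
Hexa, chr9:59539420-59539539 (+): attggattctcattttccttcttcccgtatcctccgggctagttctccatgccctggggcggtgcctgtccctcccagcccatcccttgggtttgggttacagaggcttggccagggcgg
The Lamp1 stretch holds 4 matches, those of Gla and Atp6v0b 2 each, and those of Glb1 and Gaa 1 each.

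Members with and without the motif can be set side by side as a description. In COM+Met against COM, 10 of the 14 with CACGTG rose, with a median of 0.44, and 7 of the 25 without it, with a median of 0.30. In COM against NC, 1 of the 14 rose and 3 fell, against 6 and 7 of the 25, and the medians were -0.02 and -0.10. A match of these letters is no evidence of binding. Of the members in which the letters were found, the V-ATPase genes were Atp6v0b, Atp6v0d1, Atp6v0e and Atp6v1a. None of them passed in COM+Met against COM, alternative settings aside. The 8 members with no entry were Atp6v1b2, Atp6v1c1, Atp6v1g1, Atp6v1h, Ctsb, Ctsh, Npc1 and Asah1.

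Among the 15 V-ATPase members the largest change was that of Atp6v0a1 (chr11:101009452-101063719, 22 exons), 1 of the isoforms of the V0 a subunit, which takes part in proton transport. As the lowest, median and highest of 6 samples, Atp6v0a1 was measured at 95.5, 105 and 109 FPKM in NC, 18.2, 27.4 and 37.2 FPKM in COM and 25.8, 27 and 29.6 FPKM in COM+Met. Every NC sample lay above every sample of the other groups, which overlapped. The log2 difference of COM from NC was -1.92 ± 0.18 (SE, adjusted p = 2.61e-06), the smallest p that the exact permutation test allows (0.00216) was reached, and without COM-4, COM-5 and COM-6 the difference was -1.53. COM+Met differed from COM by 0.05 ± 0.17 (SE, adjusted p = 0.885), and without those 3 samples by -0.35 (adjusted p = 0.000197).

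Atp6v1b2 (chr8:69088646-69113711) encodes a B subunit, which together with the A subunit forms the ATP-hydrolysing ring of V1. Atp6v1b2 was measured at 220.3, 261 and 309 FPKM in NC, 107, 135 and 139 FPKM in COM and 131, 139 and 146 FPKM in COM+Met. NC did not overlap with the other groups, and COM-6 was the lowest sample of all. The difference of COM from NC was -1.01 ± 0.11 (SE, adjusted p = 1.6e-05) and that of COM+Met from COM 0.09 ± 0.08 (SE, adjusted p = 0.498). Atp6v1e1, which encodes the E subunit of the peripheral stalk, was the only one of the 15 V-ATPase members to rise in COM. Atp6v1e1 was measured at 186, 202 and 235 FPKM in NC, 318, 333 and 344 FPKM in COM and 327, 345 and 380.4 FPKM in COM+Met. COM exceeded NC by 0.70 ± 0.10 (SE, adjusted p = 7.31e-05) without overlap, and COM+Met differed from COM by 0.06 ± 0.08 (SE, adjusted p = 0.624). Of the other V1 genes, Atp6v1c1 fell in COM by 0.40 on the log2 scale and rose with Met by 0.27, and both calls were lost with size factors. The fall was kept in 22 of 24 settings and the rise in 9 of 23.

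The proton-binding ring of V0 is built largely from Atp6v0c, the most abundant pump mRNA per length. Atp6v0c was measured at 752, 844 and 922 FPKM in NC, 399, 688 and 781 FPKM in COM and 778, 844 and 915 FPKM in COM+Met. Its difference of COM from NC, -0.40 ± 0.16 (SE, adjusted p = 0.0467), passed in 10 of 24 alternative settings and not with size factors. That of COM+Met from COM was 0.40 ± 0.15 (SE, adjusted p = 0.0914). It passed with size factors (0.42, adjusted p = 0.023), without COM-6 (0.27, adjusted p = 0.0184) and without COM-4, COM-5 and COM-6 (0.22, adjusted p = 0.00834). It passed as well with sample weights, all 18 samples together, or the trends on GC content and length removed. With the replicate block it did not (adjusted p = 0.191). Atp6v0d1, the d subunit between the ring and V1, had medians of 149, 88.3 and 98.5 FPKM, fell in COM by 0.76 (adjusted p = 0.000252) and was 0.17 in COM+Met against COM (adjusted p = 0.356). Alternative settings aside, Atp6v0b and Atp6v0e passed in neither of these comparisons and were higher in COM+Met than in NC by 0.33 and 0.23. In COM+Met against NC, Atp6v0a1, Atp6v0d1 and Atp6v1b2 were lower, at -1.87, -0.59 and -0.92.

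Atp6v1g1 encodes a G subunit of the stalk. Atp6v1g1 was measured at 119, 128 and 151 FPKM in NC, 61.8, 109 and 113 FPKM in COM and 129, 139 and 154 FPKM in COM+Met. The COM samples lay below all others, with COM-6 far below. The difference of COM from NC was -0.37 ± 0.15 (SE, adjusted p = 0.0509), and Atp6v1g1 rose with Met by 0.48 ± 0.14 (SE, adjusted p = 0.0375). That rise was kept in 13 of 23 settings. Atp6v1a, Atp6v1d, Atp6v1f and Atp6v1h passed in none of the comparisons, alternative settings aside. With size factors each passed as higher in COM+Met than in NC, and Atp6v1a and Atp6v1h also as higher in COM. Medians in NC, COM and COM+Met were 107, 116 and 117 FPKM for Atp6v1a and 31.3, 30.2 and 30.6 FPKM for Atp6v1d. They were 152, 128 and 147 FPKM for Atp6v1f and 51.9, 54.8 and 54.1 FPKM for Atp6v1h. Atp6v1f was at 43 FPKM in COM-6 against 122 to 144 in the other COM samples. The accessory subunit Atp6ap1, which helps to assemble the pump, was at 177, 185 and 192 FPKM in NC, 149, 178 and 195 FPKM in COM and 216, 221 and 233 FPKM in COM+Met. It rose with Met by 0.35 ± 0.09 (SE, adjusted p = 0.0209). Atp6ap2, the prorenin receptor, was at 96.5, 107 and 122 FPKM, 93.2, 102 and 106 FPKM and 100.1, 104 and 105 FPKM in the same order. It passed in none of the comparisons, alternative settings aside. In COM+Met against NC it was higher with size factors (0.24, adjusted p = 0.00357) and lower with equal sums.

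Of the 5 membrane proteins, Cd68, Lamp1 and Mcoln1 rose in COM+Met against COM, and Cd63 and Mcoln1 fell in COM against NC. Cd68, a heavily glycosylated lysosomal protein of macrophages, was at 656, 671 and 830.4 FPKM in NC, 600.1, 759 and 835 FPKM in COM and 1049, 1075 and 1141 FPKM in COM+Met. NC and COM overlapped, and COM+Met lay above both. It rose with Met by 0.56 ± 0.10 (SE, adjusted p = 0.00274), and COM differed from NC by 0.05 ± 0.12 (SE, adjusted p = 0.755). Lamp1, a major protein of the lysosomal membrane, rose with Met by 0.38 ± 0.11 (SE, adjusted p = 0.0443). Mcoln1, a calcium channel of the lysosome, rose with Met by 0.46 ± 0.13 (SE, adjusted p = 0.0358). The calls of Lamp1 and Mcoln1 with Met were kept in 8 and 15 of 23 settings, and that of Lamp1 was lost with size factors. Their medians in the 3 groups were 595, 497 and 677 FPKM and 32.3, 27.4 and 34.3 FPKM.

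Cd63 was measured at 621, 668 and 740.3 FPKM in NC, 192, 460.1 and 492 FPKM in COM and 487, 528 and 557 FPKM in COM+Met. Cd63 is a tetraspanin of late endosomes and exosomes. The COM samples lay below NC without overlap, and COM-6 was lowest. The difference of COM from NC was -0.77 ± 0.21 (SE, adjusted p = 0.00777) and that of COM+Met from COM 0.42 ± 0.20 (SE, adjusted p = 0.189). Mcoln1 fell in COM by 0.34 (adjusted p = 0.0429), a call lost with size factors. Lamp2, which also serves chaperone-mediated autophagy, did not pass in COM against NC (0.37) or COM+Met against COM (0.20). Its COM samples ran from 182 FPKM to 473 FPKM in COM-6. The difference with Met was 0.38 without COM-6 (adjusted p = 0.0656) and 0.65 without COM-4, COM-5 and COM-6 (adjusted p = 5.21e-08). With sample weights it was 0.63 (adjusted p = 8.95e-07).

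Of the 10 proteases, 5 rose and Lgmn alone fell in COM against NC, 6 rose in COM+Met against COM, and 9 were higher in COM+Met than in NC. Ctsb (chr14:63122462-63145923) and Ctsz (chr2:174427493-174439039) encode cysteine cathepsins. Ctsb was measured at 632, 644 and 691 FPKM in NC, 904, 961 and 1566 FPKM in COM and 1617, 1756 and 1874 FPKM in COM+Met. The 3 groups did not overlap, and within COM the values of COM-4 and COM-5 were 1566 and 1418 FPKM while the other samples reached at most 972. Ctsb rose by 0.75 ± 0.16 (SE, adjusted p = 0.00163) in COM and by a further 0.68 ± 0.15 (SE, adjusted p = 0.0106) with Met. Ctsz was measured at 582, 727 and 887 FPKM in NC, 912, 1461 and 1818 FPKM in COM and 1885, 1941 and 2069 FPKM in COM+Met. These groups did not overlap either, and the differences were 0.99 ± 0.18 (SE, adjusted p = 0.000578) in COM against NC and 0.47 ± 0.15 (SE, adjusted p = 0.0552) in COM+Met against COM, where the exact permutation test gave p = 0.00216. Ctsz passed in the comparison with Met without COM-6, at 912 FPKM, and also without COM-4 or without COM-5. It passed as well with size factors, equal sums, sample weights, all 18 samples together, or the trends on GC content and length removed.

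Ctsh is an aminopeptidase cathepsin. Ctsh was measured at 72.9, 122 and 137 FPKM in NC, 134, 147 and 301 FPKM in COM and 251, 258 and 275 FPKM in COM+Met. The difference of COM from NC was 0.72 ± 0.25 (SE, adjusted p = 0.029) and rested on COM-4 and COM-5, at 301 and 269 FPKM, since the call was lost without COM-4 or without COM-5. It was also lost without NC-5 or without NC-6. COM+Met differed from COM by 0.54 ± 0.20 (SE, adjusted p = 0.0952). This difference passed without COM-4 or without COM-5, and without COM-4, COM-5 and COM-6 it was 0.91 (adjusted p = 9.58e-09). Ctss, an elastolytic cathepsin of antigen-presenting cells, was at 1947, 2426 and 2655 FPKM in NC, 2895, 2998 and 3760 FPKM in COM and 3202, 3672 and 3795 FPKM in COM+Met. It rose in COM by 0.45 ± 0.14 (SE, adjusted p = 0.0138) and differed by 0.18 ± 0.11 (SE, adjusted p = 0.299) with Met. Without NC-5 and NC-6, which held the lowest values, its difference of COM from NC was 0.34 (adjusted p = 0.0698). Ctsc, which activates granule serine proteases, rose in COM by 0.69, with medians of 178, 313 and 257 FPKM over the 3 groups, and was at -0.32 in COM+Met against COM, the lowest value of any member in that comparison (adjusted p = 0.183). In COM-1 to COM-3 Ctsc was at 248 to 252 FPKM, within the NC range, and in COM-4 to COM-6 at 373 to 421 FPKM, and without the latter 3 its difference from NC was 0.36 (adjusted p = 0.131).

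The aspartic protease cathepsin D, encoded by Ctsd (chr7:142375911-142388038), was the most abundant protease mRNA. Ctsd was measured at 2888, 3177 and 3943 FPKM in NC, 1610, 2827 and 4199 FPKM in COM and 4531, 5296 and 5621 FPKM in COM+Met. NC and COM overlapped, COM+Met lay above both, and COM-4, COM-5 and COM-6 held 4199, 3756 and 1610 FPKM. It rose with Met by 0.86 ± 0.20 (SE, adjusted p = 0.0124), while COM differed from NC by -0.21 ± 0.21 (SE, adjusted p = 0.428). Ctsa, the protective protein of beta-galactosidase and neuraminidase, rose with Met by 0.64, and the tripeptidyl peptidase Tpp1 by 0.42. The medians in NC, COM and COM+Met were 187, 164 and 257 FPKM for Ctsa and 69.3, 66 and 87.3 FPKM for Tpp1, and for neither did COM+Met overlap with COM. Ctsl, a cysteine cathepsin, and Lgmn, an asparaginyl endopeptidase that processes cathepsins, rose by 0.49 and 0.42. The call of Lgmn was lost with size factors and kept in 11 of 23 settings. Ctsl had medians of 196, 224 and 329.5 FPKM and Lgmn of 151, 105 and 147 FPKM. Lgmn fell in COM by 0.46 (adjusted p = 0.0197), which did not pass with size factors either.

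**Figure D3:**
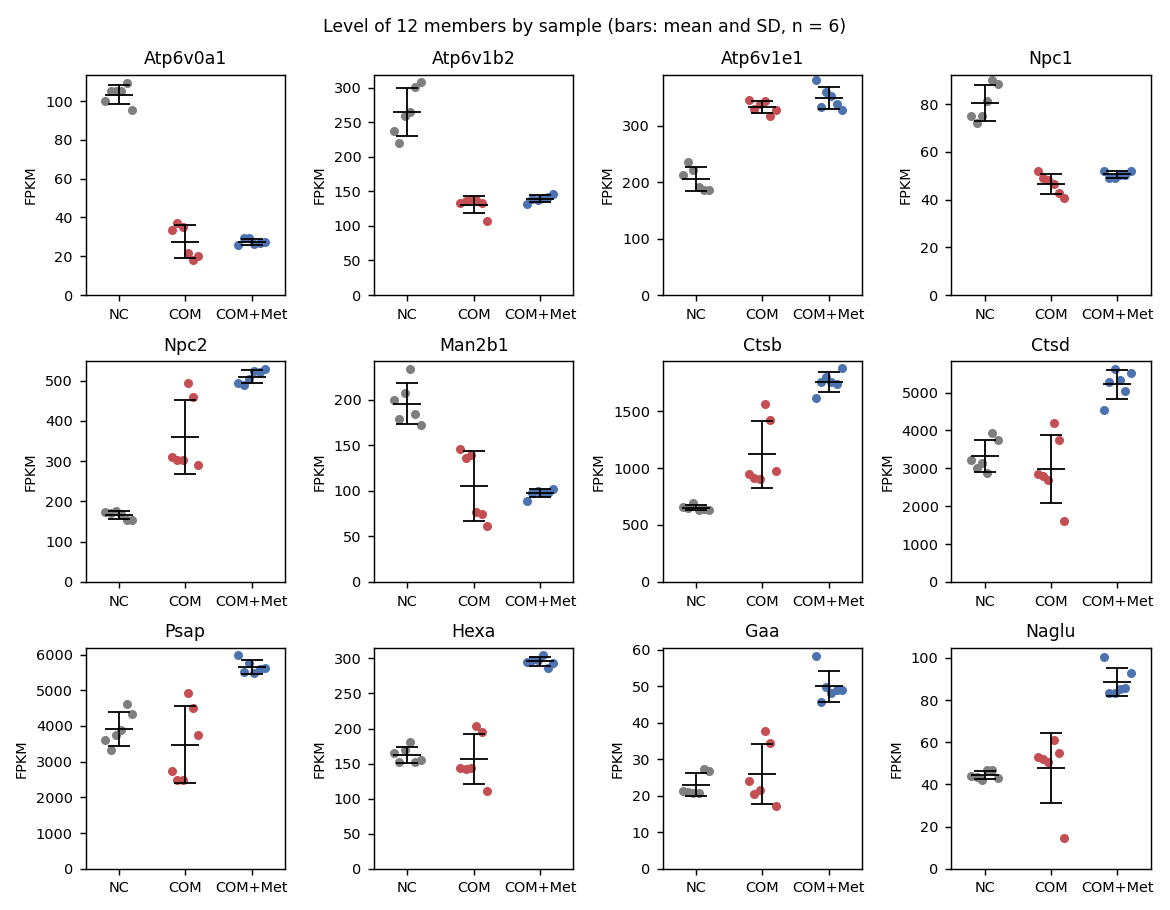
FPKM of 12 members in each sample of NC, COM and COM+Met, each panel with its own axis from 0, with mean and SD (n = 6). Atp6v0a1, Atp6v1b2, Npc1 and Man2b1 lie lower in COM and COM+Met than in NC, Atp6v1e1, Npc2 and Ctsb lie higher, and Ctsd, Psap, Hexa, Gaa and Naglu lie highest in COM+Met.

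The glycosidases held the largest rises with Met. Naglu (chr11:101070012-101077672) encodes alpha-N-acetylglucosaminidase, which removes a sugar from heparan sulphate. Naglu was measured at 42.3, 43.8 and 46.9 FPKM in NC, 14.4, 52.7 and 60.9 FPKM in COM and 83.2, 85.6 and 100.3 FPKM in COM+Met. COM+Met lay above all other samples, and COM-6, at 14.4 FPKM, lay far below the other COM samples. Naglu rose with Met by 1.00 ± 0.28 (SE, adjusted p = 0.0337), and without COM-6 by 0.69 (adjusted p = 5.5e-05). COM differed from NC by -0.02 ± 0.28 (SE, adjusted p = 0.947), and without COM-6 rose by 0.28 (adjusted p = 0.0028). The call with Met was kept in 14 of 23 settings.

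Gaa (chr11:119267887-119285454) encodes acid alpha-glucosidase, which degrades glycogen. Gaa was measured at 20.7, 21.1 and 27.3 FPKM in NC, 17.3, 22.8 and 37.7 FPKM in COM and 45.6, 48.9 and 58.3 FPKM in COM+Met. It rose with Met by 0.97 ± 0.17 (SE, adjusted p = 0.00307) without overlap, and COM differed from NC by 0.12 ± 0.18 (SE, adjusted p = 0.575). Hexa (chr9:59539540-59565109), the alpha subunit of beta-hexosaminidase, which acts on GM2 ganglioside, also lay highest in COM+Met. Hexa was measured at 152, 159.8 and 180.3 FPKM in NC, 110.3, 144 and 204 FPKM in COM and 286, 296 and 305 FPKM in COM+Met. Its rise with Met was 0.95 ± 0.14 (SE, adjusted p = 0.000887), and COM differed from NC by -0.08 ± 0.14 (SE, adjusted p = 0.643).

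Glb1 and Gusb, the beta-galactosidase and beta-glucuronidase of the lysosome, rose with Met by 0.65 and 0.66, and Gla, the alpha-galactosidase, by 0.43. Their group medians in NC, COM and COM+Met were 19.1, 21.6 and 34.9 FPKM for Glb1, 112, 83.1 and 123 FPKM for Gusb and 36.6, 42 and 61.3 FPKM for Gla. Gusb had fallen in COM by 0.54, which did not pass with size factors. Neu1, a sialidase with medians of 50.8, 80.5 and 85.6 FPKM, rose in COM by 0.57 ± 0.12 (SE, adjusted p = 0.00177), which was kept in every setting, and was at 0.19 with Met (adjusted p = 0.337). Man2b1, the alpha-mannosidase of the lysosome, was the glycosidase with the largest fall. Man2b1 was measured at 172, 192 and 233 FPKM in NC, 60.9, 107 and 146 FPKM in COM and 89, 97.8 and 102 FPKM in COM+Met. COM was below NC by -0.96 ± 0.22 (SE, adjusted p = 0.00279) without overlap, and COM-1 to COM-3 held 136 to 146 FPKM against 60.9 to 77.3 in COM-4 to COM-6. With Met it was at -0.03 ± 0.21 (SE, adjusted p = 0.933) against COM.

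Npc1 and Npc2 act together in the export of cholesterol from the lysosome, and their mRNAs moved in opposite directions in COM. Npc1 was measured at 72.2, 78 and 89.9 FPKM in NC, 40.6, 47.3 and 52 FPKM in COM and 49, 50.4 and 52.1 FPKM in COM+Met. Npc2 was measured at 153, 170.3 and 175 FPKM in NC, 291, 307 and 494 FPKM in COM and 489, 513 and 529 FPKM in COM+Met. NC did not overlap with COM for either gene. Npc1 changed by -0.77 ± 0.10 (SE, adjusted p = 3.46e-05) in COM and 0.12 ± 0.08 (SE, adjusted p = 0.328) with Met. Npc2 (chr12:84754562-84773152) rose by 1.08 ± 0.15 (SE, adjusted p = 8.12e-05) in COM, where COM-4 and COM-5 held 494 and 459.8 FPKM and the others at most 310.2, and by 0.54 ± 0.14 (SE, adjusted p = 0.0258) with Met. The directions of both in COM against NC were kept in every setting, whereas the rise of Npc2 with Met was kept in 14 of 23.

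Psap (chr10:60277627-60302597) encodes prosaposin, the precursor of the saposins that present sphingolipids to their hydrolases, and had the highest level of all members. Psap was measured at 3331, 3824 and 4607 FPKM in NC, 2472, 3245 and 4914 FPKM in COM and 5492, 5601 and 5996 FPKM in COM+Met. It rose with Met by 0.76 ± 0.18 (SE, adjusted p = 0.0152), while COM differed from NC by -0.22 ± 0.20 (SE, adjusted p = 0.367), with 4914 FPKM in COM-4 and 2472 in COM-3. The acid lipase Lipa fell in COM by 0.71 (adjusted p = 0.00138) and the GM2 activator Gm2a by 0.47 (adjusted p = 0.0392), and neither call was kept with size factors. For Gm2a the adjusted p was 0.063 without COM-6. The group medians were 409, 249 and 273 FPKM for Lipa and 80.5, 54 and 63.1 FPKM for Gm2a. With Met, Lipa was at 0.06 and Gm2a at 0.23, neither passing. Grn, which encodes progranulin, the acid ceramidase Asah1, the acid sphingomyelinase Smpd1 and the palmitoyl thioesterase Ppt1 passed in neither of these comparisons. With Met their differences from COM were 0.30, -0.10, 0.38 and 0.27, with medians of 577, 621 and 735 FPKM for Grn, 135, 131 and 116 FPKM for Asah1, 10.9, 8.81 and 10.9 FPKM for Smpd1 and 43.7, 30.9 and 41.1 FPKM for Ppt1. Against NC, COM+Met was higher for Grn by 0.33 and at -0.23 for Asah1. Without COM-6, Ppt1 fell in COM by 0.51 (adjusted p = 0.00565) and rose with Met by 0.43 (adjusted p = 0.00795). Without COM-4, COM-5 and COM-6, Grn was at 0.25 with Met (adjusted p = 7.92e-05) and Asah1 at -0.20 (adjusted p = 0.00368).

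**Figure D4:**
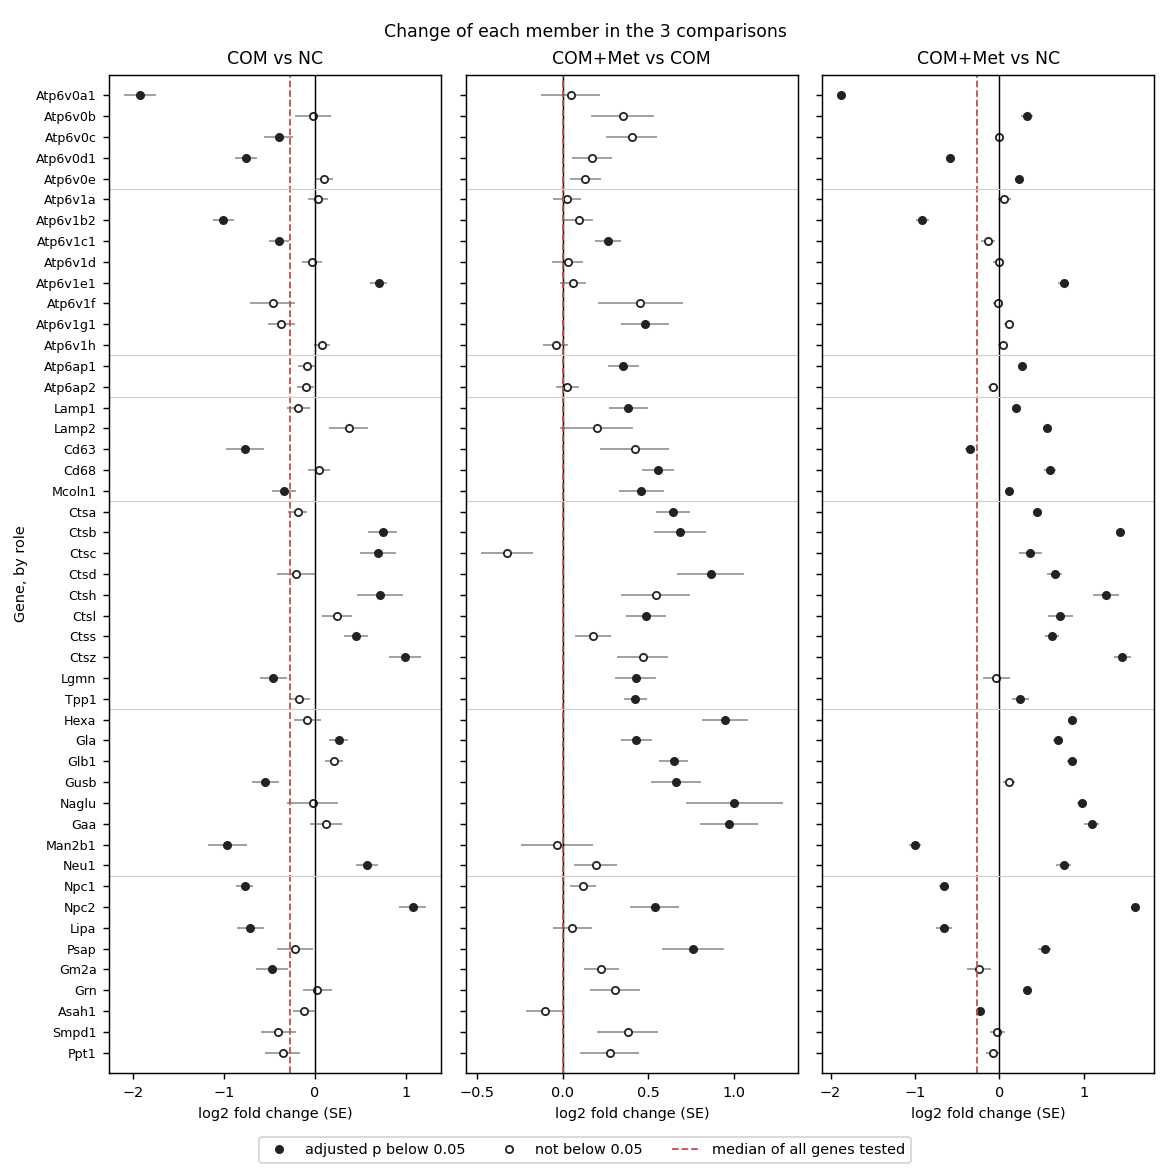
log2 fold change with SE of each member in COM against NC, COM+Met against COM and COM+Met against NC, by role, each panel with its own axis. Filled points have an adjusted p below 0.05 and the dashed line is the median of all genes tested, at -0.27, 0.0033 and -0.26. In the middle panel 43 of 47 points lie above 0, and with size factors the points of the outer panels move up.

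Ordered by mean level per length over the 18 samples, Psap (4352 FPKM), Ctsd (3840), Ctss (3036), Ctsz (1384) and Ctsb (1176) led the members, and Smpd1 was lowest (10.3 FPKM). In NC the samples of Psap and Ctsd overlapped, as did those of Ctsz and Ctsb. In COM+Met, Psap and Ctsd again overlapped, while every sample of Ctsz, at 1885 FPKM or more, lay above the highest of Ctsb, 1874 FPKM.

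Genes of the same compartment outside the 47 were counted in lists, to be read against all genes, of which 12.7% rose and 40.6% fell in COM and 5.77% rose and 7.58% fell with Met. Of 4 other V-ATPase genes tested, 1 rose and 2 fell in COM, and 1 rose with Met. The riser in COM was Tcirg1, a further isoform of the a subunit, at 0.39 (adjusted p = 0.0456), or 0.71 with size factors. With Met it was at 0.44 (adjusted p = 0.0648). Atp6v0a2, also an a isoform, was at -0.08 in COM (adjusted p = 0.378). Atp6v1g2 fell in COM by 0.40 (adjusted p = 0.0197), a call lost with size factors. Atp6v0d2, the d subunit isoform of osteoclasts and macrophages, was at 188, 206 and 360.3 FPKM in NC, 34.3, 55.9 and 67.8 FPKM in COM and 77.9, 97.1 and 109 FPKM in COM+Met. It fell by 2.24 in COM (adjusted p = 5.69e-06) and rose by 0.92 ± 0.17 (SE, adjusted p = 0.00378) with Met. Of 6 other proteases 2 rose and 3 fell in COM, and 2 rose with Met. The bone-resorbing cathepsin Ctsk fell in COM by 1.75, and Dpp7, a dipeptidyl peptidase, fell by 1.07 and rose with Met by 1.23. The serine carboxypeptidase Scpep1 rose in both comparisons, by 0.38 and 0.67.

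Of 17 other hydrolases of glycans and sulphates, 3 rose (17.6%) and 7 fell (41.2%) in COM, and 6 of 16 (37.5%) rose with Met. With size factors 6 rose and 7 fell in COM. Hgsnat, which acetylates heparan sulphate, fell by 1.53 and rose with Met by 0.55. Manba, beta-mannosidase, fell by 0.91 and was at 0.05 with Met. Hyal2 was at -0.10 in COM (adjusted p = 0.646) and rose with Met by 0.59 (adjusted p = 0.0477). Of 12 other lipid and nucleic acid hydrolases, 5 rose (41.7%) and 2 fell (16.7%) in COM, or 7 and 1 with size factors, and with Met 2 rose, among them Pld3 (0.65), and 2 fell, among them Smpdl3b (-0.67). Acp5, tartrate-resistant acid phosphatase, rose in COM by 2.31 with a range of 27.9 to 288 FPKM among COM samples. Rnaset2a rose by 1.79, and its reads could be shared with its near-identical copy Rnaset2b.

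Of 20 other lysosomal membrane proteins, 3 rose (15%) and 7 fell (35%) in COM, and 2 (10%) rose with Met, shares near those of all genes. With size factors 7 rose and 5 fell in COM. The ion channels Mcoln3 and Tpcn1 fell in COM by 2.86 and 1.96, and the chloride-proton exchanger Clcn7 rose by 1.60 and with Met by 0.63. The cystine transporter Ctns fell by 0.72 and rose with Met by 0.54. Of 16 genes of delivery to the lysosome, 3 rose (18.8%) and 8 fell (50%) in COM, which became 4 and 1 with size factors, and 2 (12.5%) rose with Met. Sort1, the sorting receptor sortilin, fell by 2.19 and was at -1.03 with Met (adjusted p = 0.161). Igf2r, a mannose 6-phosphate receptor, rose by 0.50 and 0.36. The other such receptor, M6pr, was at 0.21 in COM (adjusted p = 0.0908), where it passed with size factors, and at -0.18 with Met (adjusted p = 0.178). Nagpa and Gnptg fell in COM by 0.61 each, and neither fall passed with size factors. With Met, Gnptg rose by 0.62 (adjusted p = 0.00725) and Nagpa was at 0.39 (adjusted p = 0.249).

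Of 19 genes of the MiT factors and of lysosomal mTORC1 signalling, 0 rose, also at an unadjusted p below 0.05 in limma, and 10 fell (52.6%) in COM, and 1 (5.26%) rose with Met, the last near the share of all genes. With size factors 2 rose and 7 fell in COM. Tfeb was measured at 21.7, 29.5 and 37.8 FPKM in NC, 4.19, 10.1 and 13 FPKM in COM and 8.69, 9.9 and 11 FPKM in COM+Met. NC lay above the other groups, which overlapped. Tfeb changed by -1.60 ± 0.23 (SE, adjusted p = 9.49e-05) in COM and 0.11 ± 0.20 (SE, adjusted p = 0.756) with Met, and its relative Tfec by -0.93 and -0.04. Rragd, a GTPase that links amino acids to mTORC1, fell by 0.80 in COM and rose by 1.07 ± 0.10 (SE, adjusted p = 8.22e-05) with Met, at levels of 0.672 to 3.62 FPKM in these groups. Among the inhibitors of cathepsins, 1 of 11 rose (9.09%) and 7 fell (63.6%) in COM, with 2 and 7 by size factors, and with Met limma called 0 of the 6 tested in either direction, against 1 and 1 at an unadjusted p below 0.05 and also with size factors. Cst7, cystatin F, was at 0.941, 2.69 and 5.7 FPKM in NC and 36.9, 63.5 and 97.2 FPKM in COM, a rise of 4.10 ± 0.35 (SE, adjusted p = 1.49e-06), and BC100530, of a stefin family whose near-identical copies may share reads, fell by 3.61. Stfa1, Stfa2, Stfa3 and Stfa2l1, of the same family, are also among the 7 that fell, and their calls may rest on shared reads. The summed level of the neutrophil markers also had a lower median in COM (374 FPKM) than in NC (880 FPKM). The part of such cells in these falls was not tested. In COM these falls are counted on the scale as deposited, on which the median of all genes was -0.27.

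COM-6 lay lowest of the 6 COM samples for 28 of 47 members and highest for 7. Its difference from the mean of COM-1 to COM-5 had a median of -0.32 over the members and -0.28 over the 10445 genes tested whose length and GC content were known. Across the members this difference had a Spearman correlation of -0.71 with GC content and 0.29 with transcript length, and across all genes of -0.69 and 0.28. These points share a single library. For COM+Met minus COM the correlation with GC content over the members was 0.55, and 0.40 without COM-6, with 0.28 and 0.02 over all genes. Naglu and Gaa, with GC contents of 59.8% and 59.5%, were the members richest in GC. With the trends on GC content and length removed from each sample, an alternative chosen after seeing the data, 24 members rose with Met, 17 of the original 20 among them. The part of GC content in the differences with Met was not tested further.

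**Figure D5:**
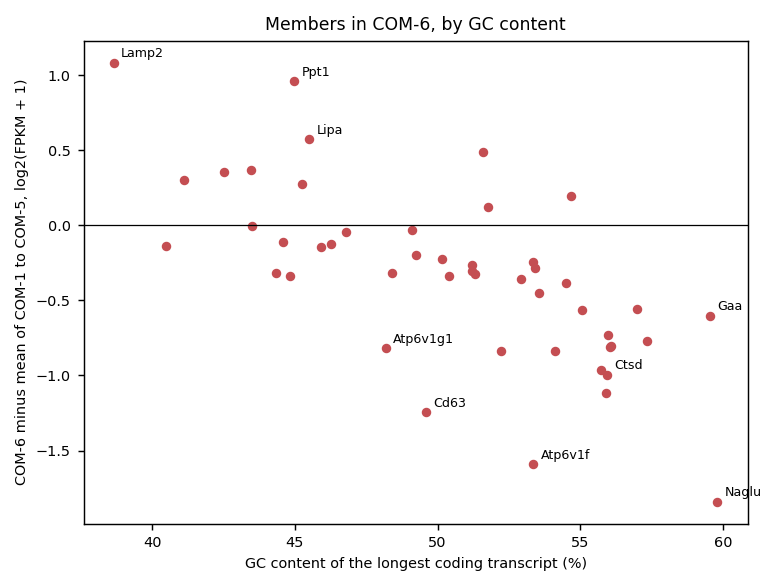
For each of the 47 members, the log2(FPKM + 1) value of COM-6 minus the mean of COM-1 to COM-5, against the GC content of its longest coding transcript in percent. The points fall towards higher GC content (Spearman correlation -0.71 across genes), from Lamp2 at 1.08 to Naglu at -1.84.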

How the data were processed

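RNA sequencing of BMDMs was analysed in 18 samples, 6 per group, grouped by their titles. TruSeq was used on total RNA per the labels. What the authors deposited is 1 FPKM value per gene and sample. Bowtie 0.12.2 and the builds mm 8 and mm 9 stand in the submitters' processing notes without roles. How FPKM was quantified, on which annotation and with which filters is not given in the sources used here. FPKM steps did not give back whole reads, so depth and counting intervals are unknown. All 18 columns were mapped and 0 left out.

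The log2(FPKM + 1) values of each comparison (12 samples, mean FPKM of 1 or more) were fitted with limma 3.58.1 (trend) under R 4.3.3, and p-values were adjusted by Benjamini-Hochberg over every gene fitted, with 0.05 as the threshold. Folds of 2 were counted separately. Single members were also tested by a two-sided exact permutation over 924 splits (smallest p 0.00216). Alternatives were pseudocounts of 0.1 and 5, no filter or 5 FPKM, size factors, equal sums, the replicate block, all 18 samples together, sample weights, samples left out, and, added after seeing the data, removal of GC content and length trends (splines, 4 df).

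The members, gene lists and markers were chosen with earlier results of these data known. Members named in full were, per comparison of COM with NC and of COM+Met with COM, the 5 largest rises and 5 largest falls that passed, the 5 highest levels and the largest change of each role, and of the other lists the 2 largest changes that passed. Other names were chosen after their values were seen. Positions, GC content and length are from GENCODE M21 (GRCm38), promoters from RefSeq (GRCm38.p6). Cathepsin proteins were not analysed here. On simulated data for COM against NC (10665 genes), a log2 change of 0.5 passed in 13 of 50 genes and a change of 1 in 41 of 50, with 7 false calls. For COM+Met against COM (10254 genes) these were 21 of 50 and 43 of 50, with 8. Python 3.11.15, pandas 2.3.3, numpy 2.4.6, scipy 1.17.1 and matplotlib 3.10.9 were used.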

Additional observations from a re-analysis of the deposited data

Results flagged for a closer look

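In 63 groups of 6 samples, 3 for each of 21 members described in full, the gap between the outermost sample and its neighbour was compared with the range of the group (Dixon's criterion at 95%). It was exceeded in 6 groups, where chance alone gives about 1 in 20, or 3.15. COM-6 accounted for 4 of them. It was lowest for Atp6v1b2 at 106.8 FPKM (others 133 to 139), for Cd63 at 192 FPKM (others 398 to 492), for Naglu at 14.4 FPKM (others 50.6 to 60.9) and for Atp6v1g1 at 61.8 FPKM (others 107.0 to 113). COM+Met-1 was lowest for Man2b1 at 89.0 FPKM (others 97.1 to 101.7) and highest for Gaa at 58.3 FPKM (others 45.6 to 49.7).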

How the results depend on the processing

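Depth is unknown from FPKM, so that the precision of low members such as Smpd1 is not known. Of the values of members that had passed, recomputed under the alternatives, 1583 kept direction and side of the threshold, 185 kept the direction and no longer passed, and 2 reversed, both of Asah1 in COM+Met against NC (0.088 with size factors and 0.0063 with the trends on GC content and length removed, neither passing).

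In COM against NC, size factors gave 16 members higher and 6 lower with a median of 0.21, which reversed the median, since they moved all genes up. Sample weights gave 20 lower and a median of -0.012, and removal of GC content and length trends, chosen after seeing the data, 18 higher and a reversed median of 0.11. In COM+Met against COM, sample weights gave 3 lower and a median of 0.29, and leaving out COM-4, COM-5 and COM-6 gave 4 lower and a median of 0.27. In COM+Met against NC the median was 0.54 with size factors, 0.18 with equal sums and 0.46 with the trends removed. Except where the construction shows it, the cause was not tested. The counts in this paragraph stand without the shares of all genes under the same settings. With each sample left out in turn, COM against NC gave 7 to 11 higher and 10 to 16 lower (median -0.13 to -0.08), COM+Met against COM 12 to 24 higher and 0 lower (0.31 to 0.40), and COM+Met against NC 23 to 25 higher and 8 to 9 lower (0.20 to 0.25).

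Samples of the same replicate number did not deviate together (correlations of -0.222 to 0.057 over the 3 comparisons). These deviations from the group means include those of COM-4 to COM-6, NC-5 and NC-6, which stood apart. The correlations therefore cannot decide whether the numbers pair samples. With the replicate number as a block, 10 members were higher in COM+Met against COM, all among the 20, and the counts were 8 and 11 in COM against NC and 24 and 8 in COM+Met against NC.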
